A study of Homo sapiens with 16 samples.

Results

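The 10 genes described here are tied to the FOXO transcription factors and to pyruvate dehydrogenase kinase (PDK), and were followed in MCF10A cells over 45 h of treatment with a HER2 kinase inhibitor. The symbols were PDK4, PDK2, PDK3, MGC17330, CCNG2, BCL6, FBXO32, SESN3, TRIB1 and FOXO3, and every array row that carried one of them was kept as a separate row. The array writes FOXO3 under its older symbol FOXO3A. These 10 of 18190 symbols had 13 of the 20589 rows, and 10 of the 13 rows were among the 11957 that passed the filter, which asked that the detection p of a row be below 0.05 on 3 or more arrays. The genes were selected on the intensity courses of these same 16 arrays, so the values of the members are a description and carry no test. MCF10A is a nontransformed human breast epithelial cell line, grown here in serum-free Ham's F-12 medium with insulin, epidermal growth factor (EGF) and hydrocortisone. Cells of parallel plates at 75% confluency received a small molecule inhibitor of the HER2 kinase at 1 µM, and RNA was taken every 3 h from 0 to 45 h, with 1 Illumina human Ref8v2 array for each of the 16 time points. The 0 h cells were untreated, and all later cells had also received fresh medium when the inhibitor was added. There was no replicate array and no series without inhibitor, so inhibitor, medium change and time in culture cannot be told apart. In a bulk culture, less RNA per cell and fewer cells that carry an RNA also cannot be told apart. The arm of cells that over express HER2 was not analysed here.

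FOXO proteins are transcription factors that the kinase AKT phosphorylates and holds in the cytoplasm while insulin and growth factor receptors are active through PI3K. When that signal falls they enter the nucleus and raise genes of cell cycle arrest, protein breakdown, stress defence and fuel choice. The PDK isoforms phosphorylate the pyruvate dehydrogenase complex and switch it off, which keeps pyruvate out of the mitochondrial oxidation pathway, and PDK4 is the isoform best known as a FOXO and fasting gene.

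To place the 3 measured PDK isoforms, whose courses differed, a RefSeq promoter window of each is shown, from 250 bases before to 50 bases after a transcription start (GRCh38.p14, 5′ to 3′ on the strand of the gene). PDK4 is from chr7:95596467-95596766 on the minus strand, PDK2 from chr17:50095101-50095400 on the plus strand (1 of its 3 windows) and PDK3 from chrX:24465036-24465335 on the plus strand. Capitals mark CAAAACA, a core of the insulin response sequence that FOXO proteins bind.
PDK4: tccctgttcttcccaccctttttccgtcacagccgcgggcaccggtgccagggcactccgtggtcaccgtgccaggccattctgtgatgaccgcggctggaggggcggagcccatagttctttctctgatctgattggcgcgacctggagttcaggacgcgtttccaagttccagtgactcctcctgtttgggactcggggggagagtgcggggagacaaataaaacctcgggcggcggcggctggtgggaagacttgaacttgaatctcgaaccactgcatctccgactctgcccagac
PDK2: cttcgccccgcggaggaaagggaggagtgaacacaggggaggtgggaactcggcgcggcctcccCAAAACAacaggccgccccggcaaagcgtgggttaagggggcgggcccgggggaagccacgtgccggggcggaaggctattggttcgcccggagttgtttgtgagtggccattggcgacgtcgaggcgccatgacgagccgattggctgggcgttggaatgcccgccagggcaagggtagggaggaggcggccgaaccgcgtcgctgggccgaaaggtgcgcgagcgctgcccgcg
PDK3: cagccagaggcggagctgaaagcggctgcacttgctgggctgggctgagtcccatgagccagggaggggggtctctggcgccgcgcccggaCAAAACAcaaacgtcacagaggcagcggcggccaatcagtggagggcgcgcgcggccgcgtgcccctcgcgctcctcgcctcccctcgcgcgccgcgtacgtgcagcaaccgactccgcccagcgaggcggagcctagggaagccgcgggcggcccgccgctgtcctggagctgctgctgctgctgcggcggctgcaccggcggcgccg
The windows were searched on both strands for the forkhead motifs GTAAACA and ATAAACA and for CAAAACA, and no 7-letter match to one of these can be a match to another. Of 35116 promoter windows in the table, 3.42% held GTAAACA, 4.24% held ATAAACA and 4.92% held CAAAACA. Of the 10 members 7 had a window, 13 windows in all. The CAAAACA letters stood in the PDK3 window and in 1 window of PDK2, ATAAACA stood in a window of FOXO3, and GTAAACA was not found in these windows. The PDK4 window shown held none of these letters. A match is a description of the letters only. MGC17330, FBXO32 and TRIB1 had no entry under these symbols.

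The share of detected rows was even over the series, as 50.1% to 52.9% of the rows of an array had a detection p under 0.05. The median intensity of an array was 210 to 254 and was lower late in the series. It was 247 to 254 at 0 to 9 h and 210 to 243 at 36 to 45 h. Of 8 epithelial and basal markers, KRT5, KRT17, CDH1, EGFR and ITGB4 were above background on all 16 arrays, TP63 on 10, LAMB3 on 4 and KRT14 on 1. Of 7 markers of other cell types, ESR1, PGR, COL1A1 and ALB were above background on no array, CD34 on 1, PTPRC on 5 and PECAM1 on 15, at log2 intensities of 6.01 to 7.61. Genes are counted here by their brightest tested row. Between the last and the first 4 time points 3 of the 7 tested epithelial and basal markers were higher in limma's fit and none lower. Of the 3 tested rows of EGFR, 1 was higher and 1 lower in that fit, and neither was its brightest row. Of the 2 tested rows of ITGB4, 1 was higher. TP63 was above background on none of the first 4 arrays and on all of the last 4, at least 2.55-fold higher (adjusted p = 6.72e-07, limma), ITGB4 was higher by 1.24 on the log2 scale (adjusted p = 1.52e-06, limma) and KRT17 by 0.69 (adjusted p = 0.0416, limma). The summed linear intensity of that list was 41794 to 67221 at 0 to 9 h and 61973 to 67682 at 36 to 45 h. Of the 2 tested markers of other cell types PECAM1 was higher by 0.84 (adjusted p = 0.000297, limma), though its mean had already gone from 6.33 at 0 to 9 h to 7.20 at 12 to 21 h, and PTPRC differed by 0.04 (adjusted p = 0.858, limma). The sum of that list was 501 to 560 at 0 to 9 h and 599 to 606 at 36 to 45 h. The part of these markers in the differences of the members was not tested. ERBB2, which encodes the target of the inhibitor, was above background on 11 arrays (log2 intensity 6.08 to 6.55) and differed by -0.03 between the last and the first 4 time points. The detection p-values of this row are not those of a single probe, and the other ERBB2 row was above background on no array. The lowest detected single-probe intensity of an array was 6.07 to 6.19, so this row lay near background.

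Levels below are log2 normalized intensities, which can be compared over time within a row but not between rows. Means are given with the SD over 4 consecutive time points, which are not replicates of a condition. Where a row was not above background, a ratio is a bound that takes the lowest intensity of any detected single-probe row of that array, or the row's own value if higher.

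PDK4 had the largest difference between the last and the first 4 time points among the members. Its log2 intensity was 7.38 at 0 h, 6.38 at 3 h, 5.89 at 6 h, 5.90 at 9 h, 6.53 at 12 h, 6.23 at 15 h, 6.94 at 18 h, 7.17 at 21 h, 5.90 at 24 h, 6.59 at 27 h, 7.36 at 30 h, 8.21 at 33 h, 9.49 at 36 h, 9.77 at 39 h, 9.72 at 42 h and 10.10 at 45 h. All 4 last arrays lay above each of the 12 earlier ones, and the arrays of 6, 9 and 24 h were not above background. On the deposited scale the same row read 343 at 0 h, 202 at 24 h and 1126 at 45 h. The mean rose from 6.39 ± 0.70 at 0 to 9 h to 9.77 ± 0.25 at 36 to 45 h, a ratio of at least 9.62. The difference of 3.38 on the log2 scale was 2.004 without background correction, where that of BCL6 ILMN_540 was slightly larger at 2.02. Against the untreated 0 h array the last mean was 5.24-fold higher. PDK4 climbed at each step from 24 to 39 h, by 2.31 from 24 to 33 h and by 1.29 from 33 to 36 h, after a fall of 1.26 on the log2 scale between 21 and 24 h.

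PDK2, an isoform found in most tissues, stayed within a narrow range. Its lowest log2 intensity was 5.99 at 9 h, its median 6.38 and its highest 7.08 at 45 h, and the 0 h array stood at 6.94. The mean was 6.40 ± 0.41 at 0 to 9 h and 6.78 ± 0.20 at 36 to 45 h, and those groups overlapped. It was above background on 13 of 16 arrays, as were PDK4 and PDK3. The Pearson r of PDK2 with PDK4 was 0.77 over the 16 arrays and 0.49 over 0 to 33 h.

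PDK3 was highest in the middle of the series and fell after 33 h. Its log2 intensity was 6.18 at 0 h, 5.81 at 3 h, 6.42 at 6 h, 6.22 at 9 h, 6.93 at 12 h, 7.04 at 15 h, 7.08 at 18 h, 7.33 at 21 h, 7.14 at 24 h, 7.30 at 27 h, 7.17 at 30 h, 7.31 at 33 h, 6.56 at 36 h, 6.30 at 39 h, 6.05 at 42 h and 5.82 at 45 h. The 8 arrays of 12 to 33 h were all above the other 8. The means were 6.16 ± 0.26 at 0 to 9 h, 7.10 ± 0.17 at 12 to 21 h, 7.23 ± 0.09 at 24 to 33 h and 6.18 ± 0.32 at 36 to 45 h, so first and last differed by 0.03. It fell by 0.75 between 33 and 36 h, the step at which PDK4 gained 1.29. Its Pearson r with PDK4 was -0.37 over the 16 arrays and 0.37 over 0 to 33 h. PDK1, the fourth isoform, was above background on 0 of 16 arrays and was not tested.

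**Figure D1:**
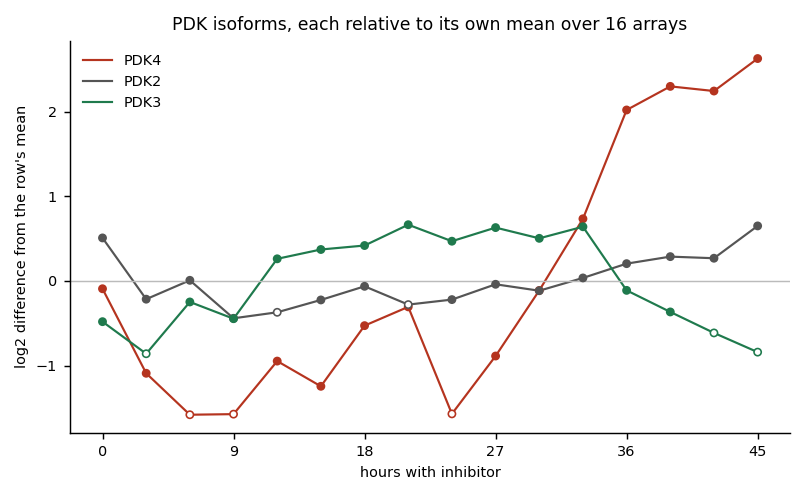
PDK4, PDK2 and PDK3 in MCF10A cells, as the log2 difference of each array from the row's own mean over 16 arrays (vertical axis) against hours with inhibitor (horizontal axis). Open points were not above background. PDK4 ends at its highest level at 45 h, PDK2 changes little, and PDK3 is high from 12 to 33 h and falls at the end.

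MGC17330 is an earlier symbol of PIK3IP1, a membrane protein that restrains PI3K. That pairing is background knowledge and does not come from the gene table used here. Its log2 intensity was 8.52 at 0 h, 6.84 at 3 h, 6.02 at 6 h, 5.55 at 9 h, 5.81 at 12 h, 5.73 at 15 h, 5.97 at 18 h, 6.26 at 21 h, 5.93 at 24 h, 5.95 at 27 h, 6.50 at 30 h, 7.49 at 33 h, 9.58 at 36 h, 9.75 at 39 h, 9.76 at 42 h and 9.71 at 45 h. The row was high before treatment, near or below background from 6 to 27 h, and on a plateau from 36 h that lay above every earlier array. The plateau mean was 9.70 ± 0.09 against 6.73 ± 1.30 at 0 to 9 h, at least 6.94-fold higher, but only 2.27-fold higher than the 0 h array. Without the 0 h array the difference from the first time points was 3.58 in place of 2.97, and without background correction it was 1.77. The step from 33 to 36 h alone was 4.26-fold.

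BCL6, a transcriptional repressor that holds down cell cycle and immune genes, had 1 row above background on all 16 arrays (ILMN_540) and 1 on none (ILMN_18289, log2 intensity 5.37 to 5.84). The ILMN_540 row read 11.03 at 0 h, 8.98 at 3 h, 8.64 at 6 h, 8.93 at 9 h, 9.85 at 12 h, 9.77 at 15 h, 10.11 at 18 h, 10.44 at 21 h, 9.44 at 24 h, 9.58 at 27 h, 10.39 at 30 h, 11.02 at 33 h, 11.64 at 36 h, 11.67 at 39 h, 11.74 at 42 h and 11.90 at 45 h. It lost 2.05 in the first 3 h, the largest single step of the row, and regained it by 33 h in a saw-tooth with a fall of 1.00 between 21 and 24 h. The mean went from 9.40 ± 1.10 to 11.74 ± 0.11, a 5.07-fold difference, and the last mean was 1.63-fold above the 0 h array.

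CCNG2 encodes cyclin G2, a cyclin of growth-arrested cells. It was highest at 0 h (7.61), still 7.29 at 3 h, fell to 6.00 at 6 h and stayed between 5.90 and 6.52 from 9 to 33 h. The last 4 arrays read 7.16, 7.48, 7.44 and 7.24, above the 10 arrays of 6 to 33 h and below the 0 h array. Their mean of 7.33 ± 0.15 was at least 1.99-fold above the mean of 24 to 33 h. TRIB1, a pseudokinase that guides proteins to breakdown, had the same outline at smaller size. Its log2 intensity was 10.84 at 0 h, 10.96 at 3 h and 9.99 at 6 h, and it lay between 10.12 and 10.49 from 9 to 33 h. The last mean was 10.93 ± 0.06, 1.58-fold above that of 24 to 33 h and 1.06-fold above the 0 h array.

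FBXO32 encodes atrogin-1, the substrate receptor of a ubiquitin ligase first known from muscle wasting. Its symbol was on 2 rows, both above background on all 16 arrays, and the rows followed different courses. The row ILMN_20035 read 12.66 at 0 h, 12.46 at 3 h, 12.12 at 6 h, 11.98 at 9 h, 9.78 at 12 h, 9.61 at 15 h, 9.10 at 18 h, 8.97 at 21 h, 10.20 at 24 h, 9.80 at 27 h, 9.38 at 30 h, 9.14 at 33 h, 10.51 at 36 h, 10.97 at 39 h, 10.73 at 42 h and 10.63 at 45 h. It was high on the 4 first arrays, fell by 2.20 between 9 and 12 h, and jumped by 1.23 between 21 and 24 h and by 1.37 between 33 and 36 h. The last mean (10.71 ± 0.20) was 3.02-fold below the first (12.30 ± 0.31), and no array of the last 4 reached any of the first 4.

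The row ILMN_3809 read 12.51 at 0 h, 10.66 at 3 h, 8.46 at 6 h, 7.91 at 9 h, 8.01 at 12 h, 7.997 at 15 h, 8.54 at 18 h, 8.85 at 21 h, 8.24 at 24 h, 8.45 at 27 h, 8.83 at 30 h, 9.51 at 33 h, 11.84 at 36 h, 12.07 at 39 h, 11.98 at 42 h and 12.25 at 45 h. This is 1 of 1497 rows whose detection p-values are not those of a single probe. Its last mean was 12.04 ± 0.17 against 9.88 ± 2.12 at 0 to 9 h, a difference of 2.15, and the 0 h array was 1.39-fold higher than the last mean. The difference was 3.03 without the 0 h array and 1.49 without the 9 h array. Between 33 and 36 h the row rose 5.06-fold. The 2 rows had a Pearson r of 0.41 (Spearman rho 0.33) over the 16 arrays. They shared the rise between 33 and 36 h and were opposite in sign at the step from 21 to 24 h, where ILMN_3809 fell by 0.61. Which transcripts the rows measure was not analysed here.

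**Figure D2:**
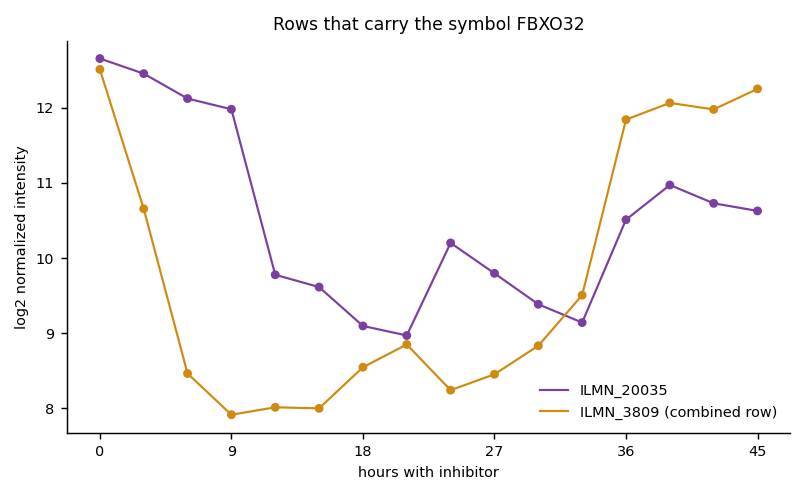
Log2 normalized intensity (vertical axis) of the rows that carry the symbol FBXO32 against hours with inhibitor (horizontal axis) in MCF10A cells, 1 array a point. ILMN_3809 drops from 12.51 to 7.91 within 9 h and returns to above 11.8 from 36 h, while ILMN_20035 stays near 12 until 9 h and ends below its start.

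SESN3, a sestrin that damps mTORC1 signalling, was above background on 3 of 16 arrays (0, 15 and 42 h), with log2 intensities of 5.56 to 6.19 over the series, and no change could be detected at this signal. FOXO3 itself had 2 rows and neither passed the filter. ILMN_15525 was above background on no array (5.30 to 5.68). ILMN_15283 passed detection on 1 array, although its deposited intensities of 1204 to 2437 were well over the background mean of 166 to 199, and it too is a row whose detection p-values are not those of a single probe. It read 11.06 at 0 h, 10.02 at 9 h, 10.41 at 33 h and 11.06 at 36 h, and the last mean of 10.99 ± 0.13 was 1.68-fold above that of 24 to 33 h and close to the 0 h array (difference -0.07).

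**Figure D3:**
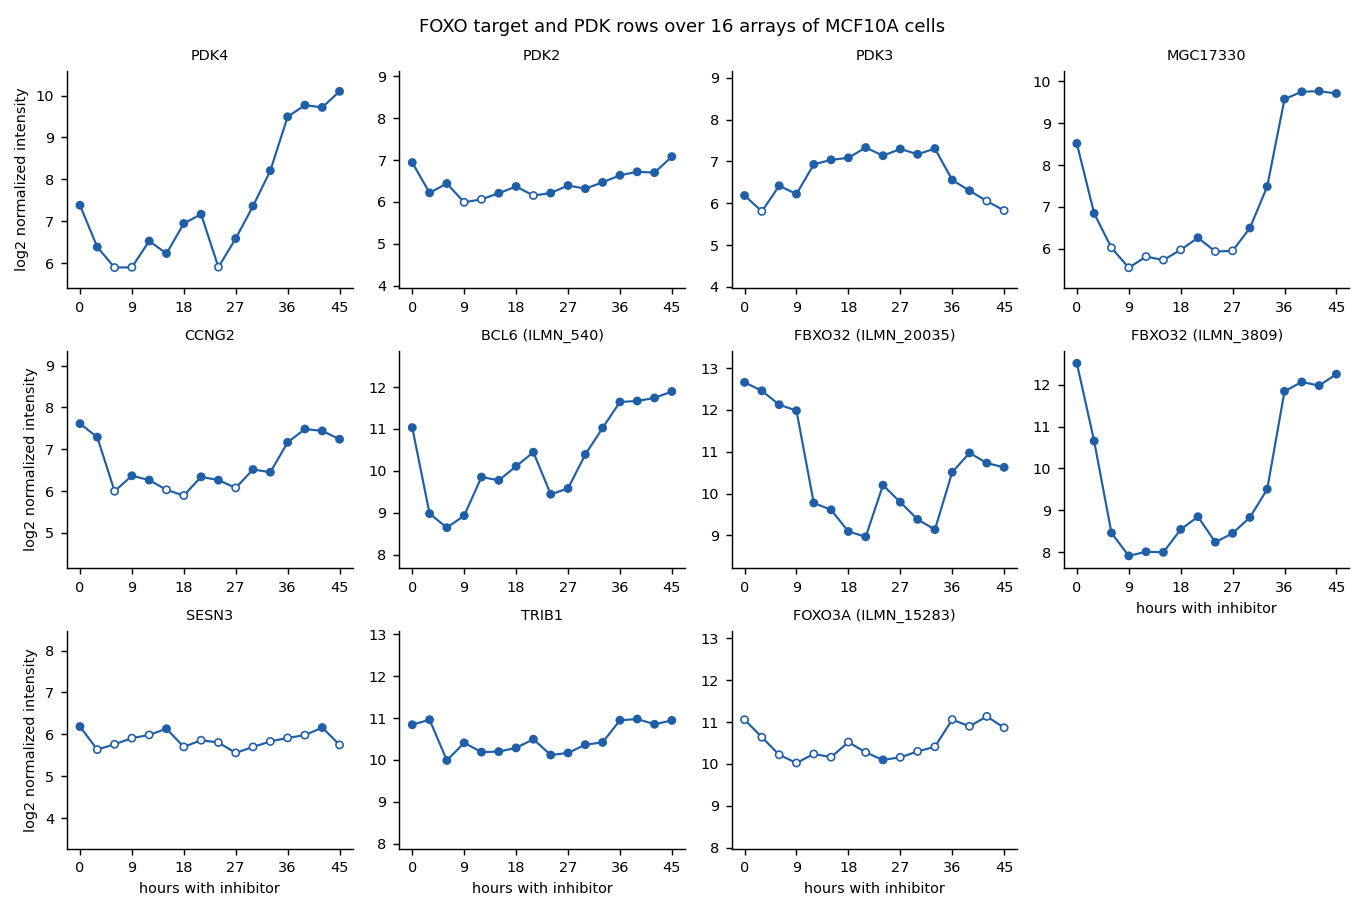
Log2 normalized intensity (vertical axes, of different range) of 10 rows that passed the filter and of the FOXO3A row ILMN_15283 against hours with inhibitor (horizontal axes), 1 array a point. Filled points had a detection p under 0.05 and open points did not. MGC17330, CCNG2 and FBXO32 ILMN_3809 start high, lie low from 6 to 30 h and rise by 36 h, while PDK3 is highest from 12 to 33 h.

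The members differed in when they moved. Between 0 and 3 h a fall of at least 1.7-fold was found in 4 of the 10 rows (MGC17330, PDK4, FBXO32 ILMN_3809 and BCL6), beside 2.49% of all 11957 tested rows. Between 33 and 36 h a rise of at least 1.7-fold was found in 4 of the 10 (MGC17330, PDK4 and the 2 FBXO32 rows), beside 3.41% of all rows. Time-dependent expression in limma's spline of time was called for 9 of the 10 and for 54.6% of all rows. In the last against the first 4 time points 4 of the 10 rows were called higher (MGC17330, PDK4, FBXO32 ILMN_3809 and BCL6), beside 16.2% of all rows, and 1 lower (FBXO32 ILMN_20035), beside 15.0%. Since the members were selected on these courses, nothing is read from these counts. Over all rows 1932 were higher and 1798 lower, and with median scaling of the arrays 2794 and 1029, but the signs of the 5 called members were the same under each scaling tried. The steps with the most rows past 1.7-fold in either direction over the whole array were 3 to 6 h (3.99% up and 3.50% down), 9 to 12 h (4.28% and 3.08%) and 33 to 36 h (3.41% and 2.98%), while 21 to 24 h had 0.485% up and 0.468% down. The array's chips hold 8 samples but the files name no chip, and the part of chips in the steps at 9 to 12, 21 to 24 and 33 to 36 h was not tested.

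**Figure D4:**
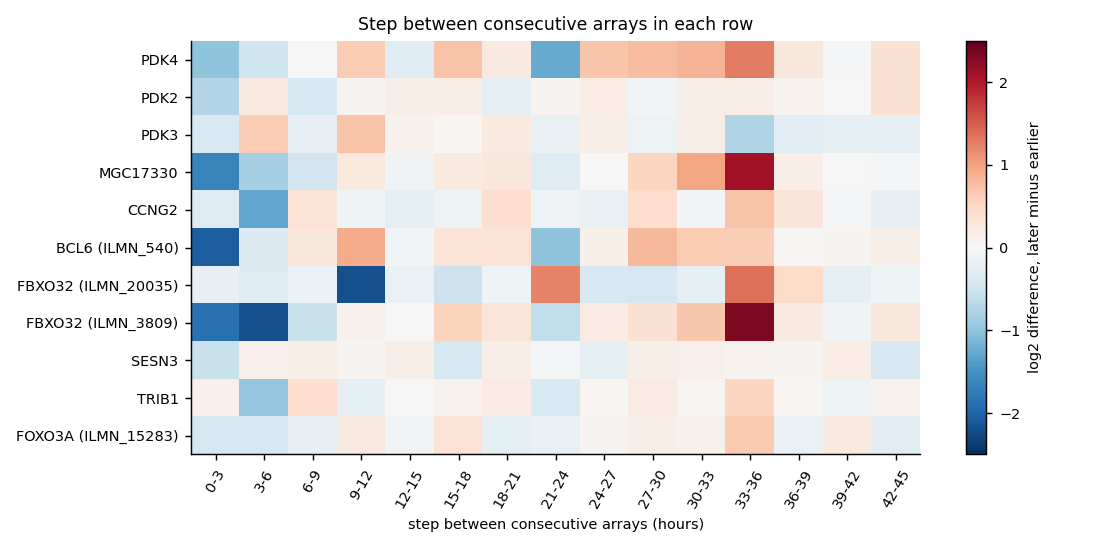
Colour gives the log2 difference between consecutive arrays (later minus earlier) for each row (vertical) and each 3 h step (horizontal), red for a rise and blue for a fall. In the column of 33 to 36 h MGC17330, PDK4 and both FBXO32 rows rise most and PDK3 falls, while SESN3 and PDK2 move by 0.08 and 0.17 only. FBXO32 ILMN_20035 differs with its fall between 9 and 12 h and its rise between 21 and 24 h.

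Among the members, PDK4 ran closest to BCL6 (r = 0.94, rho = 0.97) and MGC17330 (r = 0.94, rho = 0.86). MGC17330 ran closest to FBXO32 ILMN_3809 (r = 0.95, rho = 0.95), which also followed CCNG2 (r = 0.94, rho = 0.80). CCNG2 and TRIB1 had r = 0.94 and rho = 0.84. PDK3 was opposite to FBXO32 ILMN_20035 (r = -0.82, rho = -0.84). Over 0 to 33 h alone the r of PDK4 with BCL6 was 0.91, but with MGC17330 it was 0.68 and with TRIB1 it fell from 0.75 to 0.37. All these points are 16 arrays in time order that share 1 normalization, and the correlations are descriptions without a test.

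Over all tested rows the 5 symbols most like PDK4 by Pearson r were TNFSF10, the death ligand TRAIL (r = 0.976), CAMLG, NCOA3, DDEFL1 and CCDC6 (0.970 to 0.971). TNFSF10 was above background on 6 arrays only. MGC17330 was closest to ZBTB16, a zinc finger transcription factor (r = 0.993), the receptor ERBB3 (0.990) and catalase, CAT (0.982). BCL6 was closest to the transcription factor KLF9 (0.971), NET1 (0.960) and PTPLB (0.953). CCNG2 was closest to IHPK2 (0.975), TGIF (0.963) and C1orf63 (0.955), and TRIB1 to SPIRE1 (0.947), ARID5B (0.944) and WASL (0.940). The row FBXO32 ILMN_20035 was closest to NUDT14 (0.977), H2BFS (0.970) and SPON2 (0.965). PDK3 was closest to NUP205 (0.948), the ERK target ETV5 (0.947) and COPS3 (0.945), PDK2 to PIM3 (0.917), FLJ20551 (0.915) and DKFZp434K191 (0.912), and SESN3 reached 0.750 with PLEKHA7, 0.737 with LOC113386 and 0.727 with NBPF3.

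Genes of the same pathways outside the members were tested with limma in the last against the first 4 time points, with adjusted p-values over all 11957 rows. These lists were also written with earlier results known. An alternative contrast left out the change between the means of 12 to 21 h and 24 to 33 h. It uses the means of all 4 groups, not only of the first and the last, so its SE is wider. In it the differences of FOXO1, CITED2, IRS1, SGK3, BCKDK and MPC1 were 0.598, 1.797, 0.779, -0.514, 0.472 and -0.366. The calls of these genes, given below, were lost (adjusted p 0.0569 to 0.155, limma). Median scaling lost those of SGK3 (adjusted p = 0.107, limma) and MPC1 (adjusted p = 0.246, limma), and 42 and 45 h against 0 and 3 h also lost that of TSC2 (adjusted p = 0.0527, limma). Of all 11290 genes by their brightest tested row, 16.7% were higher, 14.9% were lower and the median difference was -0.015. The other FOXO genes on the array both rose against the mean of 0 to 9 h. FOXO4, written MLLT7, went from 8.98 ± 0.30 to 10.16 ± 0.10 (difference 1.18 ± 0.17 SE, adjusted p = 4.99e-05, limma), with a lower mean of 8.05 at 12 to 21 h. FOXO1, written FOXO1A, went from 9.57 ± 0.49 to 10.21 ± 0.07 (difference 0.64 ± 0.17 SE, adjusted p = 0.00895, limma). Without the 0 h array its difference was 0.86, so that array lay above the mean of 3 to 9 h. FOXO1 was not called when 42 and 45 h were set against 0 and 3 h (difference 0.25, adjusted p = 0.248, limma).

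Of 38 other FOXO-regulated genes 31 were tested, 15 rose, 2 fell and 14 passed neither threshold, with a median difference of 0.50. TNFSF10 went from 5.60, above background on none of the first 4 arrays, to 9.56 ± 0.17, at least 10.7-fold higher (adjusted p = 3.38e-08, limma), and its fitted difference of 3.96 was 2.23 without background correction. TXNIP, which blocks glucose uptake and binds thioredoxin, rose by 2.05 ± 0.31 SE (adjusted p = 8.63e-05, limma). CITED2, a transcriptional co-regulator, went from 9.44 ± 1.62 to 11.43 ± 0.11 (difference 1.995 ± 0.515 SE, adjusted p = 0.00675, limma). Its difference was 2.79 without the 0 h array, so that array lay above the mean of 3 to 9 h. CITED2 was not called in 42 and 45 h against 0 and 3 h (difference 1.45, adjusted p = 0.102, limma). The 2 that fell were EIF4EBP1, the translation brake 4E-BP1, by 0.86 ± 0.13 SE (adjusted p = 6.86e-05, limma), and the insulin receptor substrate IRS2, by 0.76 ± 0.15 SE (adjusted p = 0.00104, limma). The IRS2 mean had already gone from 11.3 at 0 to 9 h to 10.2 at 12 to 21 h, and was 10.6 at 36 to 45 h. IGFBP1, G6PC, PCK1, TRIM63 and FASLG, FOXO targets of liver, muscle and immune cells, were above background on no array. The same held for the cyclin gene CCND2 of this list.

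Upstream, 28 of 30 genes of PI3K-AKT signalling and FOXO modification were tested, and 6 rose, 1 fell and 21 passed neither threshold, with a median of 0.01. TSC1 rose by 0.93 ± 0.20 SE (adjusted p = 0.00221, limma) and its partner TSC2 by 0.64 ± 0.13 SE (adjusted p = 0.00114, limma), which together restrain mTORC1. The insulin receptor substrate IRS1 rose by 0.92 ± 0.23 SE (adjusted p = 0.00535, limma). The kinase SGK3 fell by 0.49 ± 0.16 SE (adjusted p = 0.0271, limma), a call that was lost without any 1 of the arrays of 0, 3, 36, 39 or 42 h (adjusted p 0.0507 to 0.0719).

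Around pyruvate, 14 of 15 genes were tested, and 4 rose, 2 fell and 8 passed neither threshold, with a median of 0.15. PDHB, a subunit of the complex that the PDK isoforms act on, rose by 0.41 ± 0.07 SE (adjusted p = 0.000345, limma). BCKDK, the related kinase of branched-chain keto acid breakdown, rose by 0.40 ± 0.11 SE (adjusted p = 0.0105, limma), and lactate dehydrogenase A, LDHA, by 0.27 ± 0.06 SE (adjusted p = 0.00291, limma). The LDHA mean was highest in the middle of the series. It was 14.9 at 0 to 9 h, 15.5 at 12 to 21 h, 15.4 at 24 to 33 h and 15.1 at 36 to 45 h. The pyruvate carriers MPC1, written BRP44L, and MPC2, written BRP44, fell by 0.29 ± 0.09 SE (adjusted p = 0.0204, limma) and by 0.28 ± 0.07 SE (adjusted p = 0.00469, limma). The MPC2 mean had already gone from 11.875 at 0 to 9 h to 11.44 at 12 to 21 h, and was 11.60 at 36 to 45 h. The call of MPC1 was lost without the 3 h array (adjusted p = 0.0709) or the 45 h array (adjusted p = 0.0582).

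Of 6 paralogs of members 4 were tested and 3 rose: CCNI by 0.76 ± 0.14 SE (adjusted p = 0.000392, limma), CCNG1 by 0.61 ± 0.13 SE (adjusted p = 0.00165, limma) and TRIB2 by 0.55 ± 0.11 SE (adjusted p = 0.00115, limma). PDK4 is also a PPAR target, and of 11 PPAR-regulated fatty acid genes 9 were tested, 5 rose, none fell and 4 passed neither threshold, with a median of 0.37. The largest differences among the called genes were those of ETFDH (0.82 ± 0.12 SE, adjusted p = 5.84e-05, limma), ACADVL (0.63 ± 0.06 SE, adjusted p = 3.74e-07, limma) and ACAA2 (0.48 ± 0.07 SE, adjusted p = 1e-04, limma), which burn fatty acids in mitochondria.

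**Figure D5:**
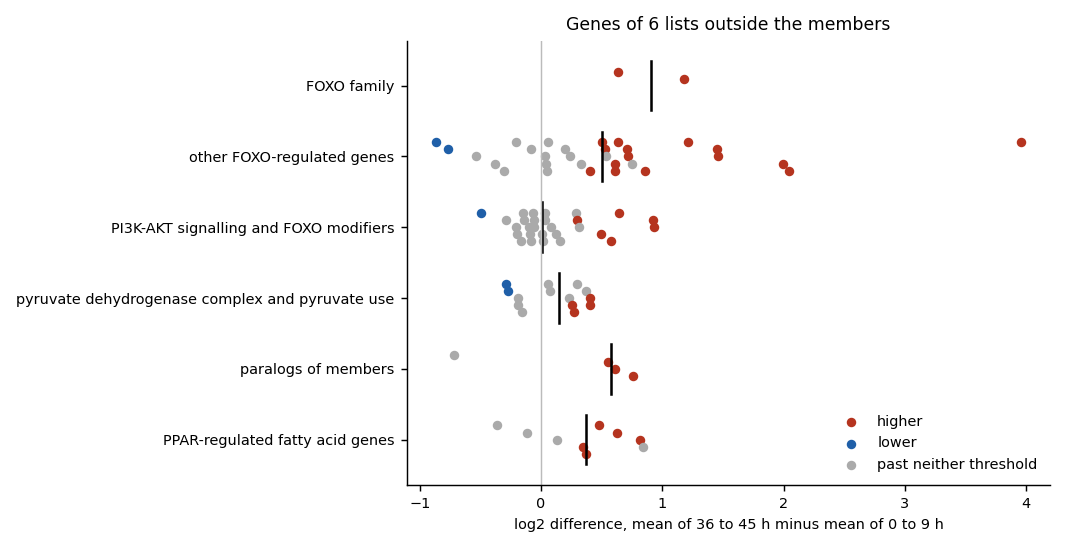
Log2 difference between the means of 36 to 45 h and 0 to 9 h (horizontal axis) for each tested gene of 6 lists outside the members (vertical, spread for legibility). Red and blue points passed limma's adjusted p under 0.05 and black bars are list medians. The FOXO lists lie mostly to the right of 0, up to TNFSF10 at 3.96, and the PI3K-AKT genes gather around 0.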

How the data were processed

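RNA of MCF10A cells at 16 time points was measured on 1 Illumina human Ref8v2 array each. The authors deposited bead intensity values on a linear scale, with no normalization between arrays, and detection p-values for all rows. The methods name quantile normalization. The summary software, a background correction and the build of the annotation are not given in the sources used here. Every column was mapped to a sample (0 were not).

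Of 20589 rows, 19092 had detection p-values in whole multiples of 1 in 708 (within 0.001) on every array and were taken as single probes, which gave the background for the normexp correction. After adding an offset of 16, quantile normalization and the log2 transform followed, all with limma 3.58.1 in R 4.3.3, and figures were drawn with Python 3.11.15 and matplotlib 3.10.9. The offset understates the change of dim rows. Rows whose detection p was below 0.05 on 3 or more arrays were tested with limma, with an intensity trend, on a natural cubic spline of time (3 degrees of freedom) and on the last minus the first of 4 consecutive groups of 4 time points. Adjusted p-values use the Benjamini-Hochberg method over all tested rows. Single samples stand in for replicates in these fits, so p-values measure the spread around the curve or within a group, and the number of arrays limits the precision.

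The members and lists were chosen with earlier results of these data known. Named outside the members are FOXO1, FOXO4 and PDK1, the 3 largest called rises and falls of each list, the 5 symbols most like PDK4, the 3 most like each other member, and markers. Genes of FOXO targets above background on no array, and those in the counts of detection, were named after their values were seen. The steps that test many rows were tested on simulated data. Values were also computed without background correction, with another offset, with other scalings, filters, curves and contrasts, and without each array in turn.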

Additional observations from a re-analysis of the deposited data

How the results depend on the processing

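With 1 array for each time point, every value rests on single hybridizations, and rows near background (PDK2, PDK3, CCNG2, SESN3 and MGC17330 from 6 to 27 h) have little signal. Of the member differences between the last and the first 4 time points, 281 of 299 alternative values stayed within 1 SD. Among these are values without an array of 12 to 33 h, which enters the difference only through the normalization. The SD is that within the first and last groups, so it also holds change over time. For PDK4 the difference was 2.004 without background correction in place of 3.38, and for MGC17330 1.77 in place of 2.97. Against the 0 h array alone, an alternative chosen after seeing the data, the sign turned for PDK2 (-0.15), FBXO32 ILMN_3809 (-0.48), FOXO3A ILMN_15283 (-0.068), CCNG2 (-0.28), SESN3 (-0.23), BCL6 ILMN_18289 (-0.06) and PDK3 (-0.003). In 42 and 45 h against 0 and 3 h it turned for TRIB1 (-0.003), CCNG2 (-0.11) and PDK3 (-0.06), and for PDK3 also without the 21 to 24 h step (-0.11). Leaving out each array in turn gave both signs for PDK3 (-0.098 to 0.146), SESN3 (-0.001 to 0.183) and FOXO3A ILMN_15525 (-0.014 to 0.089). The sign of FBXO32 ILMN_3809 therefore depends on which early arrays are compared.

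Of 6533 rows with time-dependent expression, a straight line in time called 1953, and of 58 list genes 21. The 1932 higher and 1798 lower rows became 868 and 749 when the step between 21 and 24 h was left out of the contrast, also chosen after seeing the data, and median scaling called 1029 lower. Of list genes, 35 were higher and 5 lower. Leaving out the change between the middle groups gave 18 higher and 4 lower, and median scaling gave 38 and 3. With 42 and 45 h against 0 and 3 h, 26 were higher and 11 lower. Leaving out each array in turn gave 5964 to 6532 time-dependent rows, 1618 to 2179 higher and 1468 to 2141 lower, and for the lists 53 to 60, 28 to 40 and 3 (without 3 h) to 7. For the named list genes 509 of 527 alternative values kept their direction and call, and 18 kept the direction but not the call. No paired analysis was possible because every time point has 1 array and all arrays carry the same replicate number, so the number cannot pair them. A chip as a block was planned and not run because the files name no chip.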
